A study of Mus musculus with 6 samples.

Results

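The transcription factors that build enteroendocrine cells were examined in mGLUTag cells, a mouse line of the intestinal L-cell. The set was given as a list of 9 genes (NEUROD1, NEUROG3, INSM1, NKX2-2, RFX6, HNF4A, ETV1, PAX4 and SOX4), and its members were all probes of the array whose symbol matched a name on that list. All 9 genes had a probe, and together they held 13 of the 45281 probes on the array and 9 of the 28902 genes that these probes represent.

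mGLUTag cells are immortalized and derive from a colonic tumour of a mouse in which the proglucagon promoter drives a viral oncogene. In both groups the cells had been kept in low serum and synchronized with forskolin, an activator of adenylyl cyclase, before they were returned to growth medium. RNA was collected 4 h (n = 3) and 16 h (n = 3) later, at the high and the low point of the clock gene Arntl (Bmal1) as the study defined them, and 6 arrays were hybridized, 1 per sample. No unsynchronized sample is part of the comparison, and whether the samples of a time point came from separate cultures is not given in the sources used here, so that the p-values measure the spread between these samples, which may be technical.

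Enteroendocrine cells arise from the crypt progenitors of the intestine when Notch signalling is low and the basic helix-loop-helix (bHLH) factor NEUROG3 is switched on for a short time. NEUROG3 then activates a cascade of further factors, among them NEUROD1, INSM1, PAX4, NKX2-2 and RFX6, which together set up hormone production and in several cases stay on in the mature cell. HNF4A acts more broadly in the intestinal epithelium, SOX4 acts in endocrine progenitors, and ETV1 is an ETS family factor that is enriched in endocrine cells.

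The sequence just upstream of the transcription start was examined for 3 motifs on both strands. CACGTG is the canonical E-box bound by CLOCK and BMAL1. TGACGTCA is the cAMP response element (CRE) bound by CREB, which forskolin activates, and CAGATG is a bHLH site. RefSeq promoter windows (mouse GRCm38.p6, the 250 bases before each start) were at hand for 7 of the 9 genes (not for Insm1 and Pax4), with 9 windows in all, and CACGTG occurred in 1 of them. That window, of Nkx2-2 (chr2:147186403-147186652, minus strand), held CACGTG 173 bases and CAGATG 220 bases before the start, the latter read as CATCTG. Among 32851 windows of this length over all genes, 6.02% held CACGTG, 1.55% held TGACGTCA and 14.4% held CAGATG. The only other match in the 9 windows was CAGATG, 194 bases before 1 of the 2 starts of Etv1 (chr12:38783461-38783710, plus strand). The Nkx2-2 window is shown because it held CACGTG. That of Neurod1 (chr2:79456637-79456886, minus strand) is shown because its normalized values differed most between the time points relative to their spread. That of Neurog3 (chr10:62132840-62133089, plus strand) is shown because its probe gave no signal. Capitals mark the matches, which are matches to letters only and not measured binding sites.

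Nkx2-2: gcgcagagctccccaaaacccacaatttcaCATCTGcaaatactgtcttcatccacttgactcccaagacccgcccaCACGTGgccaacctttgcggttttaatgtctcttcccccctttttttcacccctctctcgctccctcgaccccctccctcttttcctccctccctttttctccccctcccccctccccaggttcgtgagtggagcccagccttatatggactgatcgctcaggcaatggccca

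Neurod1: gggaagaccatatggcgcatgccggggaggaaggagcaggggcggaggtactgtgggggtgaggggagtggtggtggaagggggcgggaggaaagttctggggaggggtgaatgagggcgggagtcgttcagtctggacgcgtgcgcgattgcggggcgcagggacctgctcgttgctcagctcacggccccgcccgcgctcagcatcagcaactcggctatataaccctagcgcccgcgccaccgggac

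Neurog3: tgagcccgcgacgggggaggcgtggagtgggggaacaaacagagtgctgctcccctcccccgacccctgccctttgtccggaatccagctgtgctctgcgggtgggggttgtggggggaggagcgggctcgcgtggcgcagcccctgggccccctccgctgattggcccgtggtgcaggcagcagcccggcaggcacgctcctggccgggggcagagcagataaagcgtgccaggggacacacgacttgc

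To determine which lineage factors were expressed, each probe was set against a noise limit computed for its own array. The deposited intensities already have the background subtracted and are negative for 31.2% to 34% of the probes of an array, and the limit was placed at the 99th percentile of these negative values with the sign turned. It lay between 9.2 and 14 intensity units. Of the 9 genes, 8 lay above the limit on all 6 arrays and 1, Neurog3, on none. This split between Neurog3 and the other genes was also found with the limit at a stricter percentile (11.3 to 17.3 units) or at the highest sign-turned value (13.9 to 20.6 units), whereas at the 95th percentile (7.2 to 11.1 units) Neurog3 lay above it on 1 array. Across the array, 14941 probes lay above the limit on all 6 arrays and 24356 on none.

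**Figure D1:**
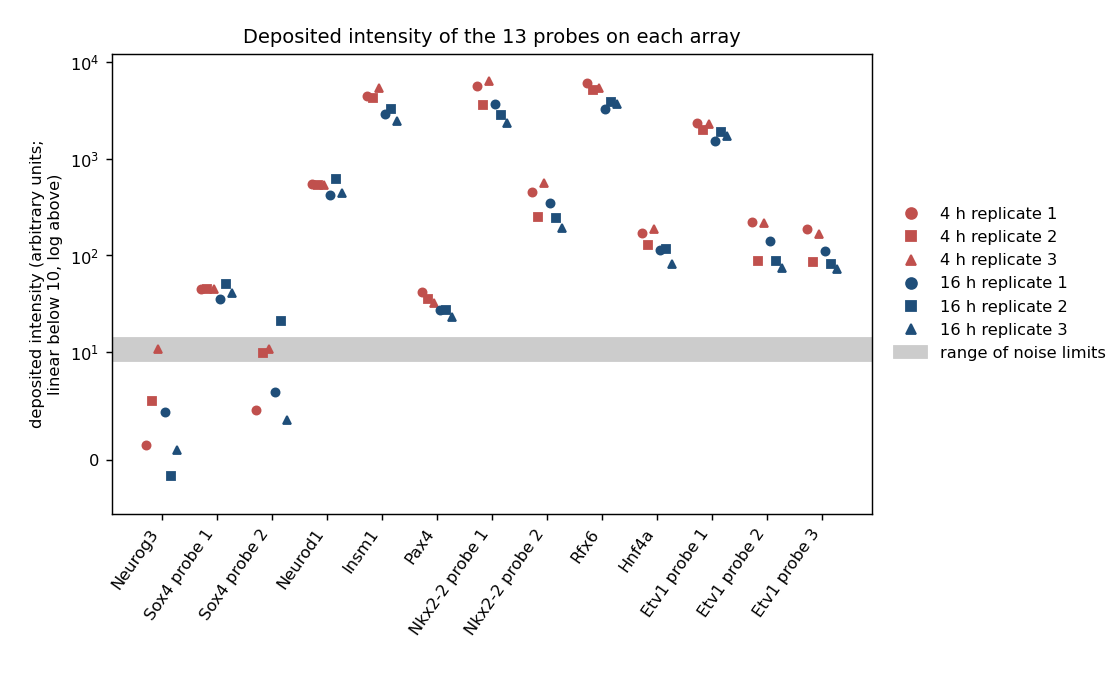
Deposited intensity (vertical axis, arbitrary units, linear below 10 and logarithmic above) of the 13 probes, with 1 symbol per array, red for 4 h and blue for 16 h; the grey band spans the noise limits of the 6 arrays (9.2 to 14 units). Neurog3 lay inside or under the band on every array, and 11 probes lay above it on all 6; levels of different probes cannot be compared with each other.

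Of the members that act at commitment, Neurog3, which encodes the factor NEUROG3 that starts the endocrine programme, gave intensities of 1.4, 5.5 and 10.9 at 4 h and of 4.5, -1.5 and 0.9 at 16 h (probe ILMN_2600778). The highest of these, on 4 h replicate 3, lay under the limit of 12.2 units of that array, so that no change between the time points is given for this gene. A probe at background bounds only what that probe can see, since in bulk RNA fewer cells of a type and less RNA per cell cannot be told apart, and a probe can also miss its transcript.

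Sox4 encodes an HMG-box factor of endocrine progenitors. Its probe ILMN_2727116 gave intensities of 45.4, 44.7 and 45.6 at 4 h and of 35.4, 50.5 and 41.2 at 16 h, above the limit on all 6 arrays, with the 4 h values inside the range of the 16 h values. A second Sox4 probe, ILMN_2893417, gave 4.6, 9.9 and 10.9 at 4 h and 6.3, 20.9 and 3.7 at 16 h, and lay above the limit on 1 array, 16 h replicate 2. That array also gave the highest value of the first probe.

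The 5 factors of early endocrine differentiation were all above the limit on all 6 arrays. Neurod1, which encodes NEUROD1, the bHLH factor directly downstream of NEUROG3, gave intensities of 540.4, 537.9 and 537.4 at 4 h and of 420.4, 609.9 and 445.8 at 16 h (probe ILMN_1228141). The 3 values at 4 h were close together and lay inside the range of the 16 h values.

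Insm1 encodes a zinc finger repressor that is needed for endocrine cells to mature and that is widely used as a neuroendocrine marker. Its intensities were 4385.4, 4216.2 and 5336.5 at 4 h and 2905.0, 3289.5 and 2445.2 at 16 h (probe ILMN_2859558), with no overlap between the time points. Rfx6, which encodes RFX6, a winged-helix factor required for several intestinal and pancreatic endocrine cell types, gave 5972.8, 5134.4 and 5342.0 at 4 h and 3288.9, 3805.8 and 3620.8 at 16 h (probe ILMN_2734616), again without overlap.

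Nkx2-2 encodes NKX2-2, a homeodomain factor that sets the balance between endocrine cell types. Its probe ILMN_1221619 gave intensities of 5556.2, 3582.1 and 6337.7 at 4 h and of 3636.9, 2810.5 and 2343.1 at 16 h, and the lowest 4 h array lay just under the highest 16 h array. The second probe, ILMN_3129849, gave 457.0, 250 and 554.6 at 4 h and 350.4, 242.3 and 192.4 at 16 h. On both probes 4 h replicate 2 was the lowest array of its time point and 16 h replicate 1 the highest of its own. Pax4, which encodes a paired-box repressor of early endocrine precursors, gave intensities of 41.8, 35.5 and 32.5 at 4 h and of 27.6, 27.6 and 23.1 at 16 h (probe ILMN_2714629), above the limit on every array and without overlap between the time points.

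Of the later and regional factors, Hnf4a, which encodes a nuclear receptor of the gut epithelium and liver, gave intensities of 169.1, 127.8 and 186.6 at 4 h and of 115.2, 117.6 and 81.5 at 16 h (probe ILMN_1237767), without overlap. Etv1 was measured by 3 probes. The first, ILMN_2631953, gave 2316.7, 1975.1 and 2283.3 at 4 h and 1517.3, 1894.0 and 1718.9 at 16 h, also without overlap. On the other probes of Etv1 the arrays of the time points overlapped, with 219.3, 88.3 and 218.1 at 4 h and 140.0, 87.0 and 73.7 at 16 h for ILMN_2649709. Probe ILMN_2643915 gave 188.8, 85.0 and 167.4 at 4 h and 110.2, 80.8 and 72.5 at 16 h.

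In these unnormalized intensities, 5 of the 13 member probes (Insm1, Pax4, Rfx6, Hnf4a and the first Etv1 probe) were higher on every 4 h array than on any 16 h array, but so were 20.3% of all probes and 49.2% of the 14941 probes that exceeded the limit on all arrays. The 4 h arrays were brighter as a whole, with a mean intensity of 322 ± 31.3 units (SD, n = 3) against 236 ± 17.0 at 16 h (SD, n = 3), a ratio of 1.37. Of those 14941 probes, 98.2% had the higher mean at 4 h, and their median log2 ratio of the means was 0.55. The middle 50% of them ran from 0.40 to 0.71, and Insm1 (0.69), Rfx6 (0.62), Hnf4a (0.62), Pax4 (0.49) and the second Nkx2-2 probe (0.68) lay inside that range. The first Etv1 probe (0.36), Neurod1 (0.13) and the first Sox4 probe (0.09) lay under it. The first Nkx2-2 probe (0.82) and the other Etv1 probes (0.81 and 0.74) lay above it. The cause of the shared difference was not tested.

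The arrays were therefore brought to a common distribution by quantile normalization, after which each value is relative to the rest of its array, and the time points were compared with limma over all 45281 probes. A change is 4 h minus 16 h on the log2 scale, and its p-value was obtained with Benjamini-Hochberg adjustment across the whole table. None of the 13 member probes passed an adjusted p of 0.05, which 4 probes of the array, or 0.00883%, did. Before adjustment, 1 member probe (Neurod1, lower at 4 h) and no member probe higher at 4 h had a p under 0.05, beside 2.6% of all probes lower and 2.82% higher at 4 h. That count of 1 member probe, beside 2456 of all probes, was 4 (beside 3219) without 16 h replicate 1 and 3 (beside 2643) without 4 h replicate 2, with the first Nkx2-2 probe higher at 4 h among both, and 0 (beside 2646) without 4 h replicate 3. It was 7 (beside 12062) without normalization between arrays and 5 (beside 8638) with median scaling. The count was 2 with linear scaling (beside 2790), with array weights (beside 2655) and with the replicate number as a block (beside 2489). Under these 2 member probes were those of Neurod1 and Sox4. The unadjusted limma p of Neurod1 was 0.00204 without 16 h replicate 1 and 0.00691 without 4 h replicate 2. With each other array left out it lay between 0.051 and 0.0715, and without background correction it was 0.068. With the replicate number as a block it was 0.00381. The member probe under 0.05 was Insm1 without 4 h replicate 1 or 16 h replicate 2, and Rfx6 without 16 h replicate 3. No member probe had normalized values that did not overlap between the time points, beside 5.54% of all probes with all 4 h values above and 5.38% with all 4 h values below those of 16 h. Of the 8 genes above the limit, 4 had a change above 0 and 4 below, with a median of 0.00, as over the 17366 probes above the limit on 3 or more arrays (0.00).

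**Figure D2:**
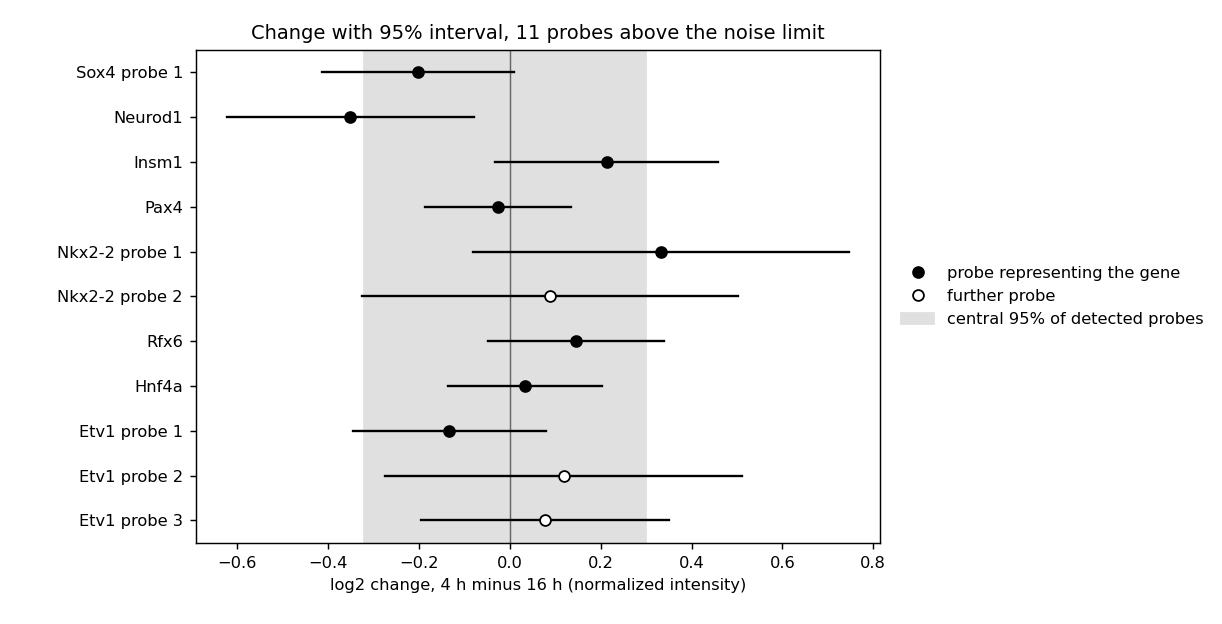
Log2 change of normalized intensity (horizontal axis, 4 h minus 16 h) of the 11 member probes that exceeded the noise limit on every array, with 95% intervals from limma; filled symbols are the probes that represent a gene, and the grey band holds the central 95% of changes of detected probes (-0.32 to 0.30). The interval of Neurod1 (-0.62 to -0.08) did not include 0, with an adjusted p of 0.8, and those of the other 10 probes did; without between-array normalization or with median scaling the sign of the Neurod1 change turned.

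Neurod1 had the smallest p of the members. Its normalized log2 values were 8.92, 9.21 and 8.93 at 4 h and 9.13, 9.54 and 9.43 at 16 h, with 4 h replicate 2 above 16 h replicate 1. The change was -0.35 (SE 0.12, 95% interval -0.62 to -0.08; limma adjusted p = 0.8). The genes whose normalized values followed Neurod1 most closely over the 6 arrays, among 10397 genes compared, were Hras (Pearson r = 0.993), Zbtb26 (r = 0.992) and Wipi1 (r = 0.992). These correlations describe 6 arrays that share their normalization, and they were picked as the highest of many.

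For Rfx6 and Insm1, which did not overlap in the deposited intensities, the normalized values of the time points did. Rfx6 gave 12.23, 12.25 and 12.20 at 4 h, an SD of 0.0273, and 11.92, 12.10 and 12.22 at 16 h, so that the highest 16 h array reached into the narrow 4 h range. Its change was 0.15 (95% interval -0.05 to 0.34; limma adjusted p = 0.937). It was 0.08 with linear scaling, and with each array left out in turn it ranged from 0.06 to 0.22. Insm1 gave 11.80, 11.95 and 12.19 at 4 h and 11.72, 11.90 and 11.68 at 16 h, with a change of 0.21 (95% interval -0.03 to 0.46; limma adjusted p = 0.92). With 1 array left out, the change of Insm1 lay between 0.11 (without 4 h replicate 3) and 0.30 (without 4 h replicate 1).

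The values of Nkx2-2, whose window held CACGTG, varied widely between arrays of the same time point. The first probe gave 12.13, 11.73 and 12.47 at 4 h and 12.06, 11.66 and 11.61 at 16 h, and its residual SD stood at the 95.2nd percentile of the detected probes. The change was 0.33 on this probe (95% interval -0.08 to 0.75; limma adjusted p = 0.924) and 0.09 on the second (95% interval -0.32 to 0.50; limma adjusted p = 0.983). Averaged over both probes the change was 0.21, and with each array left out in turn that of the first probe ranged from 0.15 (without 4 h replicate 3) to 0.52 (without 4 h replicate 2). Both probes moved together over the arrays, with Pearson r = 0.912 over 6 arrays as a description.

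The change of Hnf4a was 0.03 (95% interval -0.14 to 0.20; limma adjusted p = 0.983) and that of Pax4 was -0.03 (95% interval -0.19 to 0.13; limma adjusted p = 0.985). The residual SD of Hnf4a stood at the 10.7th percentile of the detected probes. The change of Sox4 was -0.20 (95% interval -0.41 to 0.01; limma adjusted p = 0.919). Pax4 and Sox4 lay close enough to background that the offset of 50 units used in the background correction shrinks both their changes and their spread. With an offset of 16 the change of Sox4 was -0.29 (SE 0.158) and that of Pax4 -0.04 (SE 0.146). Without background correction, which drops the correction and the offset together, that of Sox4 was -0.48 (SE 0.237) and that of Pax4 -0.09 (SE 0.148).

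The probes of Etv1 differed in sign. The change was -0.13 on the first probe (95% interval -0.35 to 0.08; limma adjusted p = 0.951), 0.12 on ILMN_2649709 (adjusted p = 0.975) and 0.08 on ILMN_2643915 (adjusted p = 0.978). Over the 6 arrays, the last of these probes correlated with each other (r = 0.971), and their correlation with the first was below 0 (r = -0.592 and -0.49), a description of 6 points. In the log of the deposited intensities it was above 0 (r = 0.579 and 0.662). Averaged over its probes, the change of Etv1 was 0.02. The interval half-widths of the genes ran from 0.16 to 0.413 under this processing. They do not cover the choice of offset or normalization, and they do not show that the levels were equal.

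The arrays also separated in a way that cut across the time points. On 4 h replicates 1 and 3 and 16 h replicate 1, a probe for 18S ribosomal RNA (ILMN_1230073) gave 600.2 to 3138.5 units, against 55.2 to 188.1 on the other 3 arrays, and the Actb probe ILMN_1377923 gave 5352.9 to 8961.0 against 719.4 to 1063.5. This separation was found in the data and is not in the labels. Of the 11 member probes above the limit, 4 were higher on the arrays with high 18S signal without overlap, beside 10.2% of detected probes, and 3 were lower, beside 9.99%. Those higher were both probes of Nkx2-2, by 0.55 and 0.49 on the log2 scale, and the last probes of Etv1, by 0.49 and 0.30. Those lower were Neurod1, with a difference of -0.40, Sox4, with -0.26, and Pax4, with -0.09.

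**Figure D3:**
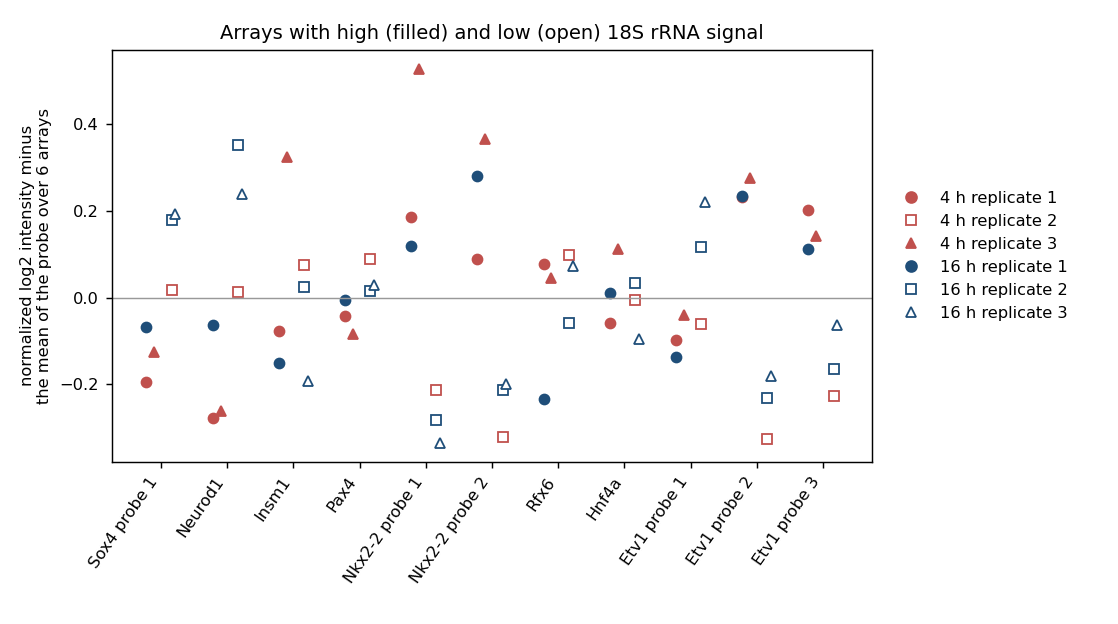
Normalized log2 intensity of the 11 member probes on each array, as the difference from the mean of the probe over the 6 arrays (vertical axis); filled symbols are the 3 arrays with high 18S ribosomal RNA and Actb signal and open symbols the other 3, red for 4 h and blue for 16 h. Filled and open symbols did not overlap for 7 of the 11 probes, whereas red and blue overlapped for all of them.

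The time points were also compared within each kind of array. Among the arrays with high 18S signal, the 4 h mean of the first Nkx2-2 probe exceeded the 16 h array by 0.24, and among the others the 4 h array exceeded the 16 h mean by 0.10. On the second Nkx2-2 probe these differences had the other sign, with -0.05 and -0.11. With the separation as a block the change of the first Nkx2-2 probe was 0.17 (limma adjusted p = 0.912), about 2 times smaller than without it. For Neurod1 the same values were -0.21 and -0.28, and -0.24 with the block (adjusted p = 0.617). For Insm1 they were 0.27 and 0.16, for Rfx6 0.29 and 0.09, for Hnf4a 0.02 and 0.02, and for Sox4 -0.09 and -0.17. For Pax4 (-0.06 and 0.07) and the first Etv1 probe (0.07 and -0.23) the sign differed between the kinds of array. With the block, the unadjusted limma p of Neurod1 was 0.00968 and that of Rfx6 0.0446, and 2660 of all probes lay under 0.05. The part of the separation in these results was not tested further.

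To set the members beside the rest of the lineage programme, lists of related genes were read in the same way, and no gene of any list passed the adjusted threshold. Of 27 other endocrine lineage factors with a probe, 12 lay above the limit on all 6 arrays, 2 more on at least 3 and 7 on none. The LIM-homeodomain factor Isl1 gave intensities between 6604.9 and 9911.9 at 4 h and between 4636.6 and 6994.8 at 16 h, and the intestinal homeobox factor Cdx2 gave 5985.1 to 7115.8 and 4000.1 to 4878.2. The probe for Rfx3 lay above the limit on 1 array and that for Pax6 on 4, and those on none included Insm2, Nkx6-3, Gata6, Lmx1a and the neuronal repressor Rest. Of the 14 genes with a change, 11 were above 0 and 3 below, with a median of 0.11, and 2 had an unadjusted p under 0.05, both higher at 4 h. Of the 17366 probes above the limit on 3 or more arrays, 8908 were above 0 and 8458 below, and 5.49% had such a p and were higher and 4.83% lower at 4 h.

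The smallest p in this list belonged to the forkhead factor Foxa2, an early regulator of endoderm and of the proglucagon gene. It gave 61.0, 40.6 and 71.0 units at 4 h and 22.5, 27.7 and 17.7 at 16 h, with a change of 0.28 (SE 0.08; limma adjusted p = 0.624). The log2 ratio of its deposited means, which holds the shared difference in brightness, was 1.35. At these intensities the offset shrinks the change of Foxa2, as it does for Pax4 and Sox4. The duodenal and pancreatic factor Pdx1 had a change of 0.25 (adjusted p = 0.706), and Nkx6-1 one of -0.22 (adjusted p = 0.919).

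Of 25 relatives of the members by gene family, 6 lay above the limit on all 6 arrays and 12 on none, among the latter Neurog2, Atoh1, Hnf4g, Sox9 and Sox11. The 3 with the smallest p were Rfx2, with a change of 0.30 (adjusted p = 0.81), Sox12, with -0.23 (adjusted p = 0.919), and Rfx1, with -0.18 (adjusted p = 0.948). Of 21 genes of the Notch pathway and of other secretory fates, 7 lay above the limit on all 6 arrays and 12 on none. The latter held the regulators of goblet, Paneth and tuft cells Atoh1, Gfi1, Spdef and Pou2f3, and the Notch genes Dll4, Jag1 and Rbpj. The smallest p belonged to Mfng, a glycosyltransferase that modifies Notch (-0.29, adjusted p = 0.78), Hes6 (0.21, adjusted p = 0.892) and Klf4 (-0.20, adjusted p = 0.946). Rbpj is expressed in most cell types, so that a probe at background is not evidence that its gene is off.

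**Figure D4:**
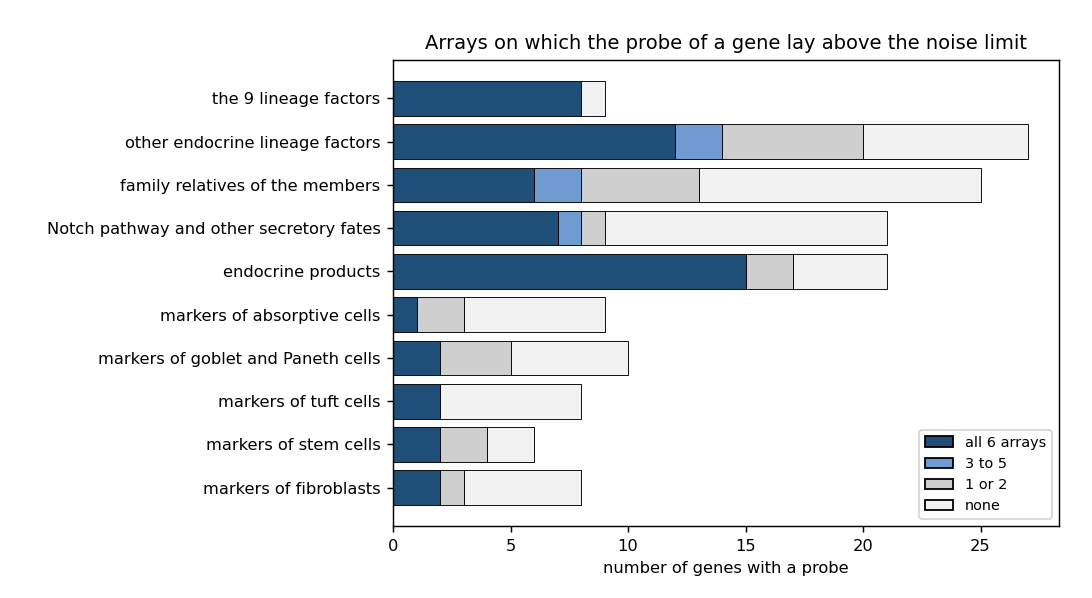
Number of genes with a probe (horizontal axis) in each list, by the number of arrays on which the representative probe lay above the noise limit, from dark blue (all 6) to white (none). Of the 9 lineage factors 8 lay above it on all 6 arrays and 1 on none, beside 12 and 7 of 27 other endocrine lineage factors and 15 and 4 of 21 endocrine products.

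As a check of the cell line, 15 of 21 endocrine products lay above the limit on all 6 arrays. Gcg, the proglucagon gene that yields GLP-1 and defines the L-cell, gave 18607.2 to 21125.6 units at 4 h and 11298.2 to 12947.2 at 16 h, and Cck, Chga, Chgb and Scgn were also above the limit on every array. Pyy, the other hormone typical of L-cells, was above it on none and the prohormone convertase gene Pcsk1 on 1, so that the label is borne out by Gcg but not by these probes. In the list, 3 products of 15 had an unadjusted p under 0.05 and a higher value at 4 h and 2 a lower one, beside the same 5.49% and 4.83% of probes. The smallest p belonged to Insl5, a peptide of colonic L-cells, with a change of 0.77 (adjusted p = 0.369), then Gcg with 0.35 (adjusted p = 0.461) and Tac1 with -0.23 (adjusted p = 0.712).

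Most markers of other cells were not above the limit on all arrays. Of absorptive cell markers, 1 of 9 lay above the limit on all arrays (Slc5a1), of goblet and Paneth cell markers 2 of 10 (Tff3 and Spink4, with Muc2 on none), of tuft cell markers 2 of 8 (Avil and Dclk1, with Pou2f3 and Trpm5 on none), of stem cell markers 2 of 6 (Axin2 and Cdca7) and of fibroblast markers 2 of 8 (Vim and Col1a1, with Col1a2, Col3a1 and Dcn on none). The summed intensity of the absorptive list was 10.8 to 24.3 units at 4 h and 18.2 to 38.8 at 16 h. Values below 0 offset values above it in this sum, and Slc5a1 alone gave 14.4 to 32.6 and 13.8 to 19.2 units. Absorptive cells also express Hnf4a, and their part in its signal was not tested. The sums of the goblet and Paneth list were 693.5 to 945.9 and 584.9 to 820.0 units, of which Tff3 gave 628.6 to 865.3 and 532.2 to 779.1. Those of the tuft list were 43.9 to 65.7 and 31.7 to 61.6. Those of the stem list were 936.2 to 1255 and 629.3 to 860.9, of which Cdca7 gave 711.6 to 961.9 and 507.8 to 700.5. The summed intensity of the fibroblast list was 1478 to 2853 units at 4 h and 972 to 1693 at 16 h, nearly all from Vim, and the part of these markers in the member values was not tested.

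The changes of the members were also computed under other ways of processing the arrays. No member was called under 15 of the 17 settings applied to the arrays. Without any normalization between arrays, Rfx6 (0.61, limma adjusted p = 0.0329) and Insm1 (0.68, adjusted p = 0.0404) were called higher at 4 h, as were 5.1% of all probes, and with each array scaled by its median Rfx6 was (0.52, adjusted p = 0.0371), as were 1.84% of all probes. No probe of the array was called lower under either setting. Under these settings the median of all detected probes was itself shifted by 0.39 and 0.30 on the log2 scale. Neurod1 stood at 0.14 and 0.05, under that median in both.

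**Figure D5:**
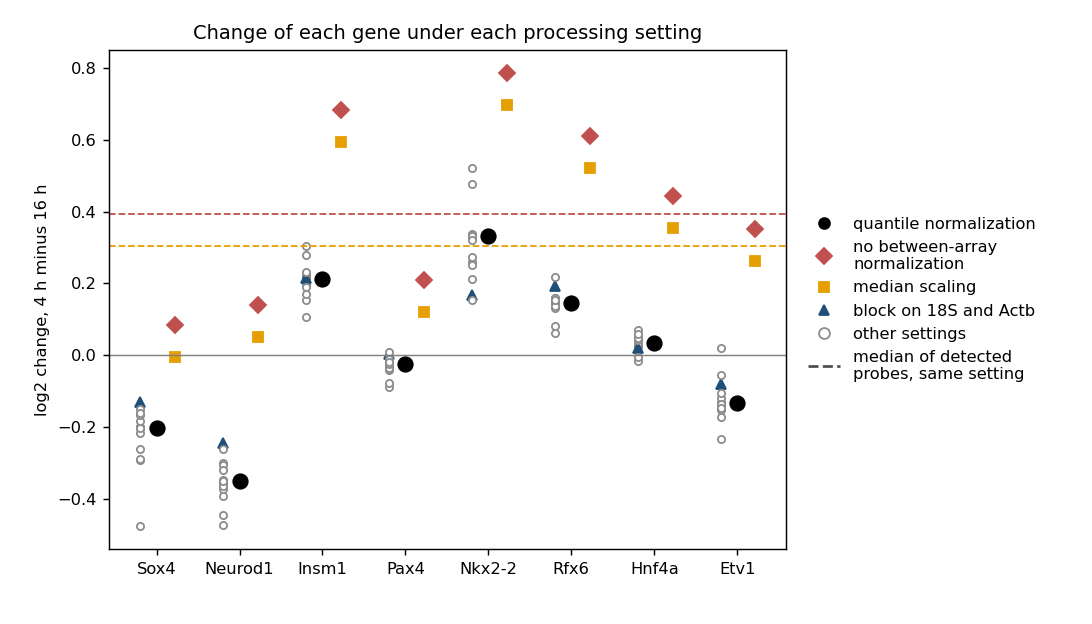
Log2 change (vertical axis, 4 h minus 16 h) of the 8 genes above the noise limit under quantile normalization (black), without normalization between arrays (red), with median scaling (orange), with the 18S and Actb separation as a block (blue) and under each other setting (open), with the median of all detected probes under 2 of them as dashed lines in the same colour. Without normalization all 8 genes lay above 0 while the median of detected probes stood at 0.39, and Neurod1, Sox4, Pax4 and Etv1 lay under that median.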

How the data were processed

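RNA of 6 mGLUTag samples was hybridized to a mouse WG-6 V2 Illumina BeadChip, with 1 array per sample. The deposited intensities are linear, background-subtracted by the authors and not normalized between arrays, and come without detection p-values, control probes or slide. Scanner software is not given in the sources used here. After normexp correction with an offset of 50, arrays were quantile normalized and put on the log2 scale, and all probes were fitted with lmFit and eBayes (limma 3.58.1, R 4.3.3), with time as the only term. P-values are two-sided. The procedure was tested on simulated data. Precision is limited by the number of arrays: for 1 value, exact permutation of 3 against 3 arrays has a smallest two-sided p of 0.1.

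The probe with the highest mean log2 value after normalization stood for its gene, and no change is given for a gene above the noise limit on fewer than 3 arrays. Symbols were updated through a RefSeq table (GRCm38.p6), in which 27760 probes had their symbol, 7994 had a synonym and 9527 had neither. Named genes are all members, the 3 genes with the smallest p in each list, the 3 most like the member with the smallest p, and markers of the cell types. Other genes of the lists, given as examples of those above or below the noise limit, were picked with their values in view. Members, lists, the noise limit and the 18S and Actb separation were chosen with earlier results of these data known. Alternatives covered the background correction, the normalization, filters, variance settings, blocks, left-out arrays and the averaging of probes. Some genes of the lists are counted but not reported by name here.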

Additional observations from a re-analysis of the deposited data

How the results depend on the processing

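Between 4 h and 16 h, 2 probes of the array were called higher and 2 lower by limma. These counts were 19 and 10 without background correction, 0 and 0 with an offset of 16, 2308 and 0 without normalization between arrays, 832 and 0 with median scaling, and 1 and 0 with trend and robust variance. They were 0 and 0 with the filter on probes above the noise limit, and 0 higher with cyclic loess. With each array left out in turn they ranged from 0 to 0 in both directions. Samples of the same replicate number did not deviate together at every number (r = 0.25, 0.17 and -0.49 for numbers 1 to 3). With the replicate block 0 were called higher and 0 lower, 2489 had an unadjusted p under 0.05, and no member was called.

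Of 138 values of the members under other settings, 123 kept their direction and side of the threshold. Member probes called numbered 2 of 13 without normalization (Rfx6 0.61, Insm1 0.68), beside 5.1% of all probes, 1 with median scaling (Rfx6 0.52), beside 1.84%, and 0 otherwise. The sign turned without normalization for Pax4 (0.21), Neurod1 (0.14), Sox4 (0.085) and Etv1 (0.35), with median scaling for Pax4 (0.12), Neurod1 (0.051) and Etv1 (0.26), with the 18S and Actb block for Pax4 (0.0039), without 4 h replicate 3 for Pax4 (0.0097) and Hnf4a (-0.016), without 16 h replicate 3 for Hnf4a (-0.0065), and with the probes of Etv1 averaged (0.021). The cause of these turns was not tested. Without normalization and with median scaling, the shift of all detected probes (0.39 and 0.30) stays in the values. Leaving out 1 array moved Neurod1 between -0.47 and -0.26, Nkx2-2 between 0.15 and 0.52, Rfx6 between 0.063 and 0.22, Insm1 between 0.11 and 0.30, Etv1 between -0.23 and -0.056, Sox4 between -0.29 and -0.15, Pax4 between -0.077 and 0.0097 and Hnf4a between -0.016 and 0.070. Without background correction, Sox4 stood at -0.48.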
